A study of Mus musculus with 4 samples.

Results

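The genes described here are Il7r, Il2rb, Il2ra, Il4ra, Il15ra and Il21r, which encode receptor chains for interleukins that signal through the common gamma chain, together with Il6ra, the receptor chain for interleukin-6. They are 7 of the 21774 protein-coding genes of the mouse annotation, and they were chosen by name. Il6ra does not belong to the common gamma family by its partner, since the interleukin-6 receptor signals through gp130. The common gamma chain gene itself, Il2rg, lies on chromosome X and is treated below with the partner chains.

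Interleukin receptors of this family have no enzyme activity of their own. Ligand binding brings a private chain together with the shared chain, Janus kinases bound to the chains become active, and STAT factors are phosphorylated and move to the nucleus. In CD8+ T cells, interleukin-7 and interleukin-15 are known for keeping naive and memory cells alive, while interleukin-2 drives the growth of activated cells. Il7r is known to be lowered in most effector cells and kept in memory precursors, and Il2ra to be induced on activation. Trimethylation of lysine 9 of histone H3 (H3K9me3) marks silent chromatin, and SUV39H1 is one of the methyltransferases that deposit it.

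H3K9me3 was mapped by chromatin immunoprecipitation and sequencing in CD8+ T cells of C57BL/6 background, from Suv39h1 knockout (KO) mice and wild-type (WT) littermates. For 3 days the cells of both genotypes had received interleukin-2 and been stimulated through CD3 and CD28 with antibodies, so both groups were activated. There was 1 H3K9me3 library per genotype, so no test was possible, and what belongs to a library and what to a genotype cannot be told apart. The labels give neither the number of animals behind a library nor the kind of knockout allele. The inputs, 1 per genotype, are not analysed here.

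Each library was available as a list of islands, stretches in which the mark was called, with edges on a grid of 500 bp and a read count per island. The WT list held 12371 islands with 5547695 reads over 136 Mb, and the KO list 25424 islands with 10020253 reads over 249 Mb. Whole-library depth is unknown, and counts are not scaled between the lists. The least dense islands held about as many reads per kb in both lists, with a 1st percentile of 34.3 in WT and 34.1 in KO and a median of 40.4 and 40.1. The absence of an island means that none was called, which does not show that the mark is absent. An island list does not show expression either. It cannot show whether Suv39h1 was lost or whether the cells are CD8+ T cells. No island of either list lay at 79.9% of all protein-coding genes, and the marker lists are too short to be told from that share. Of 10 T cell markers, Cd8a and Cd3e among them, 0 held an island, of 5 B cell markers 1 did (Pax5, WT alone), of 5 myeloid markers 1 (Adgre1, both lists), and of the CD4 lineage genes Cd4 and Zbtb7b neither did.

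H3K9me3 islands lay over Il7r and Il2rb in the WT library, and over none of the 7 receptor genes in the KO library. Counted in the gene with 2 kb on each side, 2 of 7 genes held an island in WT alone, 0 in KO alone, 0 in both and 5 in neither. Over all protein-coding genes, 6.39% held one in WT alone, 6.16% in KO alone, 7.58% in both and 79.9% in neither. The share with any island was 14.0% in WT and 13.7% in KO, close to 1 gene in a group of 7 for either library. A count of 2 in WT and of 0 in KO thus differs from the background by about 1 gene on each side. For an island in 1 library alone, the background shares give 0.45 genes of 7 in WT and 0.43 in KO, where the counts were 2 and 0. The members measured 23.8 to 50.4 kb, and among the 5850 protein-coding genes of 20 to 60 kb the shares were 6.96% in WT alone and 4.26% in KO alone.

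Within 100 kb of the 7 genes, 7 islands were listed in all, 4 in WT and 3 in KO. They lay near 4 genes in WT and 2 in KO, where 48.9% and 40.4% of all protein-coding genes had one that close. The 4 WT islands summed to 40.5 kb with 1695 reads, and the 3 KO islands to 14 kb with 630 reads. None of these KO islands remained when the KO list was cut to the WT number by keeping those with most reads, at least 351. This limit is set on KO alone and favours long islands, and 2 of the 4 WT islands hold fewer reads than that. Il2ra and Il15ra lie only 12 kb apart on chromosome 2, and Il4ra and Il21r only 23.8 kb apart on chromosome 7, so their surroundings are shared and the 7 genes stand at 5 separate places. These 5 places span 1.27 Mb, of which islands covered 3.18% in WT and 1.1% in KO. Over the autosomes, between the first and last islands, islands covered 5.7% in WT and 10.4% in KO. Nearer the genes the libraries differ less. With all autosomal protein-coding genes and 100 kb on each side merged in the same way, islands covered 5.28% in WT and 7.28% in KO. Averaged over genes, so that shared sequence counts more than once, the cover was 4.42% in WT and 4.69% in KO. Merged as 5 places, the receptor genes thus had less cover than the merged windows of all genes, in both libraries. No average over the 7 genes was taken, and single genes varied. Il7r had 8.49% in WT and 4.92% in KO, above the averages over all genes. Il15ra had 4.59% in WT, also above the average, and 0 in KO. Il2rb had 3.01% and 0, Il21r 1.73% and 1.30%, and Il2ra, Il4ra and Il6ra had 0 in both. The map of islands around each gene shows how they are spread.

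**Figure D1:**
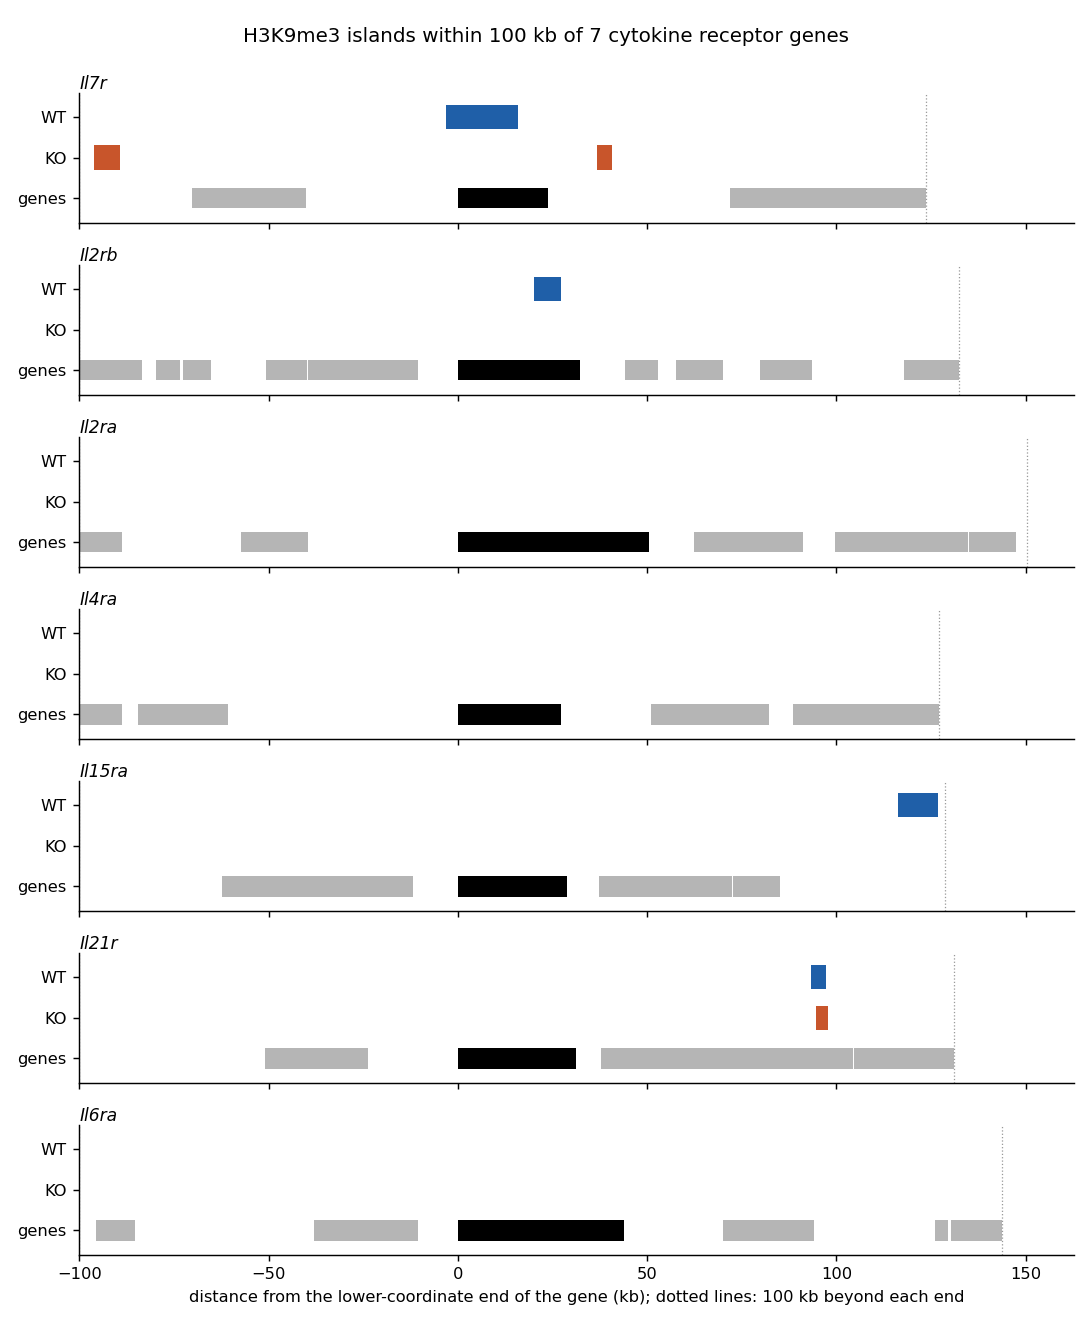
Each panel shows 1 receptor gene (black) with the protein-coding genes (grey) and H3K9me3 islands (WT blue, KO orange) within 100 kb; the horizontal axis is the distance in kb from the lower-coordinate end of the gene. Blue boxes lie on Il7r and Il2rb, orange boxes lie on none of the 7 genes, and 3 panels hold no island.

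Il7r encodes the interleukin-7 receptor alpha chain, CD127 (chr15:9506159-9529941, mm10, minus strand). A WT island at chr15:9503001-9522000 was 19 kb long and held 753 reads, or 39.6 per kb (95% Poisson interval 36.9 to 42.6, counting error only). It covered 66.6% of the gene, 15.8 kb at the 3' end, and reached 3.16 kb beyond that end. The 7.94 kb next to the gene start were free of islands. Exons, introns and untranslated regions were not used here. In length the island stood at percentile 94.3 of the WT list, while its reads per kb stood at percentile 40.7 of that list and at 63.6 among the 70 WT islands of the same length. It was thus long for a WT island, and its reads per kb were in the middle of the list. With islands limited to those denser than their list's median it drops out, leaving Il2rb as the 1 receptor gene with an island. The order of cover within 100 kb of Il7r then reverses, from 19 kb in WT and 11 kb in KO to 0 in WT against 4 kb in KO. Short islands were denser in general, so this limit favours them. The KO island that remains, 4 kb long, stood at percentile 8.08 in reads per kb among the 433 KO islands of its length.

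Beside Il7r, the KO library had 2 islands within 100 kb, both outside the gene and neither meeting the WT island. The nearer lay 13.1 kb upstream of the annotated gene, at chr15:9543001-9547000, between Il7r and Spef2, a sperm flagellum gene. It was 4 kb long with 179 reads, or 44.8 per kb (38.4 to 51.8). The other lay 89.2 kb beyond the 3' end, past Capsl, at chr15:9410001-9417000, 7 kb long with 280 reads, or 40 per kb (35.5 to 45.0). Between these KO islands stretched 126 kb with no KO island, which held the whole of Il7r and the WT island. From the WT island to the nearest KO island were 21 kb. For the 6388 WT islands that no KO island met, the median of this distance was 35.5 kb, with quartiles of 11 and 115 kb.

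Farther out, the same neighbourhood held an island called nearly alike in both libraries. Over Ugt3a1, a UDP-glycosyltransferase gene 195 kb from Il7r, the WT island at chr15:9295001-9311500 held 62.7 reads per kb and the KO island at chr15:9296501-9312000 held 65.5, and they shared 15 kb. It was 1 of 4 WT islands within 200 kb of Il7r, and no KO island met the other 3. Other islands between 100 and 200 kb from Il7r were a WT island over Ugt3a2 (54 reads per kb, 3.5 kb), and in Spef2 a WT island of 7.5 kb and a KO island of 6.5 kb that did not meet.

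Il2rb encodes the beta chain, CD122, shared by the receptors for interleukin-2 and interleukin-15 (chr15:78479256-78511621). Its WT island, chr15:78499501-78506500, lay wholly inside the gene and covered 21.6% of it. It was 7 kb long with 297 reads, or 42.4 per kb (37.7 to 47.5), at percentile 70.8 of the WT list and at 38.7 among the 496 WT islands of that length. The island began 20.2 kb from the lower-coordinate end of the gene and stopped 5.12 kb short of the higher one. Unlike Il7r, the gene had no KO island anywhere near. The nearest one was 1515 kb away, and the nearest other WT islands were 885 kb away on one side and 1088 kb on the other.

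Il2rb also stood in the most gene-rich 100 kb window of the 7, with 9 other protein-coding genes, among them Rac2 and Tmprss6, against a median of 4 over all protein-coding genes. Il7r had 2 such neighbours, and the other members 3 to 6. Il7r and Il2rb are both on chromosome 15 but 68949 kb apart, so their islands do not belong to 1 stretch of chromatin.

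Il15ra encodes the interleukin-15 receptor alpha chain, which presents interleukin-15 to neighbouring cells (chr2:11705172-11733985). No island of either list lay in the gene. A WT island of 10.5 kb with 428 reads, or 40.8 per kb (37.0 to 44.8), lay 87.5 kb away at chr2:11821501-11832000, outside any protein-coding gene and 31.2 kb from Ankrd16. No KO island met it, the nearest being 67 kb from it, and the nearest KO island to Il15ra itself was 165 kb away. Il2ra, which encodes CD25, the interleukin-2 receptor alpha chain (chr2:11642792-11693194), had no island within 100 kb in either list. The same WT island was its nearest, at 128 kb, and its nearest KO island was at 206 kb.

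Il21r encodes the interleukin-21 receptor (chr7:125603252-125634397), and Il4ra the alpha chain that binds interleukin-4 and, with another partner, interleukin-13 (chr7:125552271-125579474). Neither gene held an island. Both libraries had a short island 62.1 kb (WT) and 63.6 kb (KO) beyond Il21r, inside Gtf3c1, which encodes a subunit of the RNA polymerase III factor TFIIIC. The WT island, chr7:125696501-125700500, was 4 kb long with 217 reads, or 54.2 per kb (47.3 to 62.0). The KO island, chr7:125698001-125701000, was 3 kb long with 171 reads, or 57 per kb (48.8 to 66.2). They shared 2.5 kb, which was 62.5% of the WT island and 83.3% of the KO island, and their intervals of reads per kb overlapped. This was the only pair of the 7 islands that met. For Il4ra the same islands lay at 117 and 119 kb, so that gene had none within 100 kb.

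Il6ra (chr3:89869324-89913196) had no island within 100 kb in either list. Its nearest WT island was 161 kb away and its nearest KO island 719 kb away. That left 3 genes, Il2ra, Il4ra and Il6ra, without an island within 100 kb in either library, or 3 of 7 against 43.0% of all protein-coding genes. An island within 100 kb in WT alone was listed for 2 genes, Il2rb and Il15ra, where the background was 16.6%. Il7r and Il21r had one in both (background 32.3%) and 0 genes had one in KO alone (8.08%). These counts are near those that the background shares give for 7 genes, which are 3.0, 1.2, 2.3 and 0.57.

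Of the 4 WT islands near the receptor genes 1 was overlapped by a KO island, where 48.0% of all WT islands were. Of the 3 KO islands 1 was overlapped by a WT island, against 24.9% of all KO islands. The short Gtf3c1 islands were the densest of the 7, at percentile 98 of the WT list and 99.2 of the KO list. Short islands were denser in general, and among islands of the same length they stood at percentiles 77.5 and 94. The other 5 islands held 39.6 to 44.8 reads per kb, and their Poisson intervals overlapped one another. The plot of length against reads per kb sets the 7 islands among all others.

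**Figure D2:**
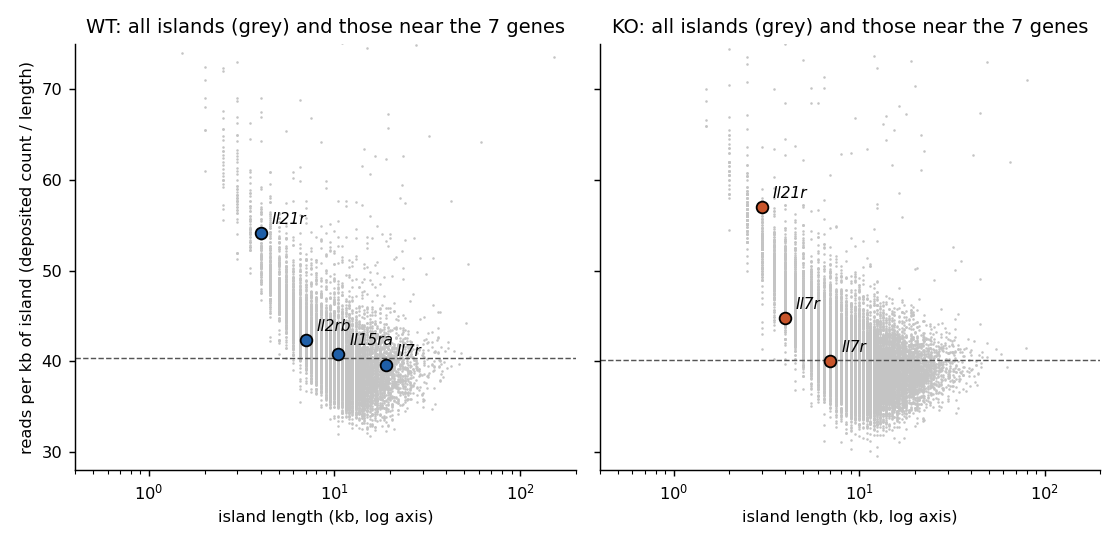
Each point is 1 island, with its length in kb on a log axis and its reads per kb on the vertical axis; grey points are all islands of the WT (left) or KO (right) list, coloured points those within 100 kb of the named receptor gene, and the dashed line is the median of the list. The axis stops at 75 reads per kb, above which 35 WT and 46 KO islands lie; the Il7r island of WT is at 39.6 and the Gtf3c1 islands near Il21r at 54.2 and 57.

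For each of the 7 genes the nearest WT island was closer than the nearest KO island. The distances were 0 and 13.1 kb for Il7r, 0 and 1515 kb for Il2rb, and 62.1 and 63.6 kb for Il21r. They were 87.5 and 165 kb for Il15ra, 117 and 119 kb for Il4ra, 128 and 206 kb for Il2ra, and 161 and 719 kb for Il6ra. For Il21r and Il4ra the gap between the libraries was 1.5 kb, the difference between the edges of the Gtf3c1 islands. Il2ra and Il15ra share their nearest islands, as do Il4ra and Il21r, so the 7 genes give 5 separate comparisons. Among all protein-coding genes the WT island was the closer one for 55.0% and the KO island for 36.1%. The median distance was 87.5 kb in WT and 165 kb in KO over the 7 genes, and 105 and 162 kb over all protein-coding genes.

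**Figure D3:**
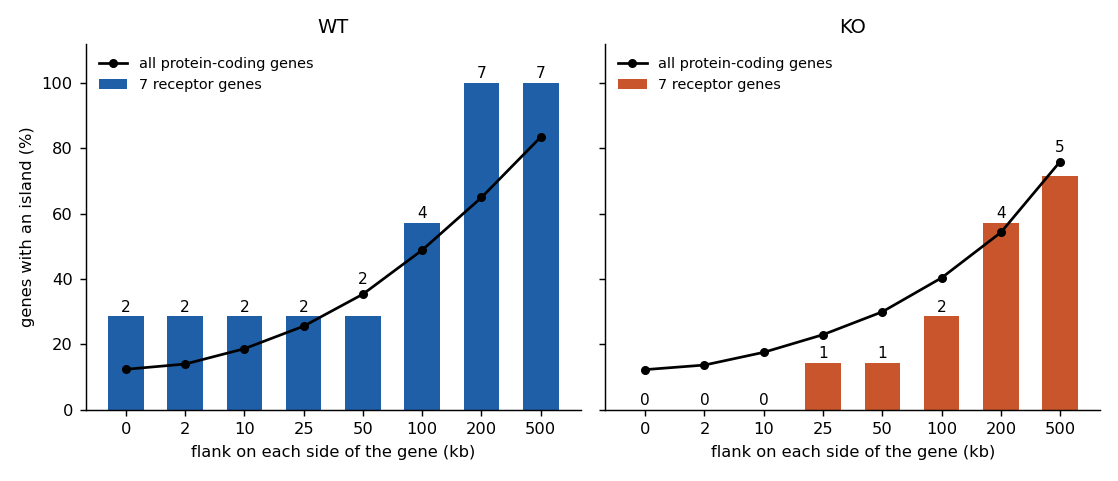
Bars give the percent of the 7 receptor genes with at least 1 island within the flank on the horizontal axis (kb on each side, unevenly spaced steps), with the number of genes above each bar, in WT (left) and KO (right); the black line gives the percent of all protein-coding genes. In WT 2 genes held an island from 0 to 50 kb and 7 from 200 kb on, and in KO 0 up to 10 kb and 5 at 500 kb.

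With wider flanks more genes had an island in reach, in WT before KO. With 200 kb on each side 7 of 7 genes had a WT island and 4 a KO island, where 65% and 54.3% of all protein-coding genes did. With 500 kb the counts were 7 and 5, against 83.5% and 76%. Il2rb and Il6ra were the genes without a KO island at 500 kb.

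Over a wider neighbourhood, 1 Mb on each side, the 7 genes did not share a direction. Islands covered 7.88% of the Il7r neighbourhood in WT (14 islands) and 4.77% in KO (11 islands). Around Il2rb they covered 0.935% in WT and 0 in KO. The Il2ra neighbourhood was covered by 14.1% and 7.83%, and that of Il15ra, which is mostly the same sequence, by 14.5% and 7.86%. In contrast, KO cover was the higher around Il4ra (2.94% in WT and 8.58% in KO), Il21r (2.93% and 7.47%) and Il6ra (2.96% and 3.72%). KO cover was thus above WT cover for 3 of 7 genes and below it for 4, and over all protein-coding genes for 44.8% and 47.5%. Il4ra and Il21r also share most of this sequence, so the 7 genes give 5 separate comparisons and each pair is counted more than once. The median cover over all protein-coding genes was 3.68% in WT and 3.42% in KO. Il7r, Il2ra and Il15ra lay above the upper quartile of WT cover, 6.83%, and Il2rb lay below the lower quartile in both libraries, which was 1.59% in WT and 0.783% in KO.

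**Figure D4:**
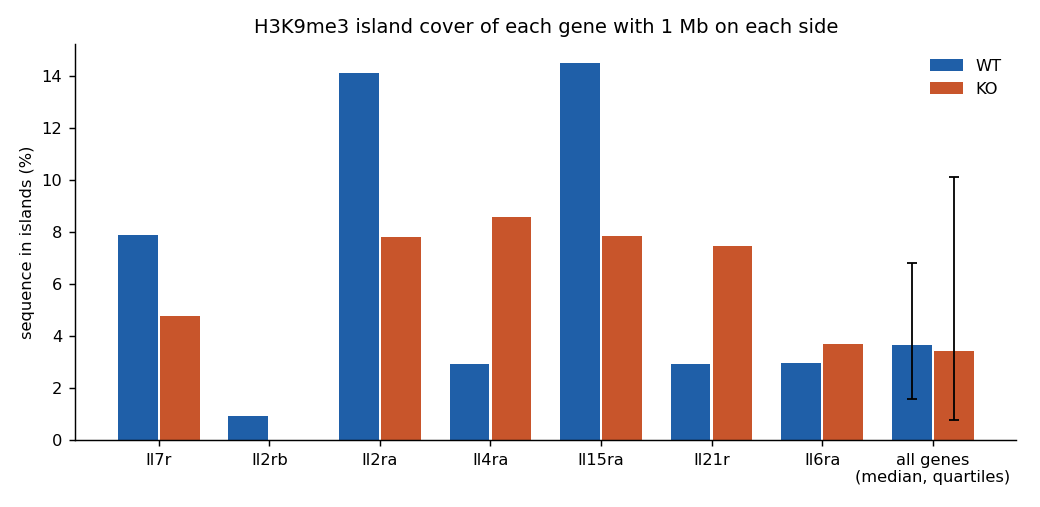
Bars give the percent of sequence in H3K9me3 islands over each receptor gene with 1 Mb on each side, in WT (blue) and KO (orange), 1 library each; the last pair of bars is the median over all protein-coding genes, with whiskers at the quartiles. WT bars are the taller at Il7r, Il2rb, Il2ra and Il15ra, and KO bars at Il4ra, Il21r and Il6ra.

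The annotated starts that could be checked lay outside islands. The RefSeq promoter table (GRCm38.p6) has windows from 250 bases before a gene start to 50 after. It matched 6 of the 7 genes, Il2rb aside, with 7 windows. Of these windows 0 met a WT island and 0 a KO island. No window of Il2rb could be checked, but both ends of the annotated gene lay outside islands. Its WT island was 20.2 kb from the lower-coordinate end and 5.12 kb from the higher one. Over all 21263 promoter windows of protein-coding genes, 3.06% met a WT island and 3.36% a KO island. The Il7r window was the closest to an island, 7.83 kb from the WT island on the gene side and 12.9 kb from the KO island upstream, so it lay in the gap between them. The next was that of Il21r, 93 kb from its WT island and 94.5 kb from its KO island.

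Promoters that met an island were poor in CpG dinucleotides, with a median of 2 per window in WT and 1 in KO against 13 over all windows, and 95.4% of all windows held at least 1. The letters searched were CG, which read the same on both strands. The receptor promoters ranged from 1 CpG in Il7r and 3 in Il2ra to 25 in Il4ra and in Il6ra. Of the other windows, that of Il21r held 7 and the pair of Il15ra windows 6 and 15. The Il7r promoter had as few CpGs as promoters that met islands, and met none. This is the usual case for such promoters. Windows with 3 or fewer CpGs made up 23.9% of all windows, but 66.2% of those that met a WT island and 80.3% of those that met a KO island. Over all windows 3.06% met a WT island and 3.36% a KO island, so the share among CpG-poor windows is higher than these. The bases of the window that lie outside the annotated gene are shown for Il7r, which lies between the WT and KO islands, and for Il2ra and Il4ra as a CpG-poor and a CpG-rich member with no island within 100 kb. They run 5′ to 3′ on the gene's strand, from RefSeq GRCm38.p6, with each CpG in capitals. The stretches are chr15:9529942-9530126 (minus strand), chr2:11642542-11642791 (plus strand) and chr7:125552021-125552270 (plus strand).
Il7r: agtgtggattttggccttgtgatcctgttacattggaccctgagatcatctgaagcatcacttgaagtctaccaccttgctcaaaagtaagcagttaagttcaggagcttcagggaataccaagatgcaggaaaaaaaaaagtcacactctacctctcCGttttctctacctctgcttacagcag
Il2ra: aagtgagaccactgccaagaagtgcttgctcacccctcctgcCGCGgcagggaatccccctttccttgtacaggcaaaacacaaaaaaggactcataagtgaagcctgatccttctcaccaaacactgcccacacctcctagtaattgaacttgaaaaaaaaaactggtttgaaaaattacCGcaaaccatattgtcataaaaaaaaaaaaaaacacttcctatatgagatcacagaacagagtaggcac
Il4ra: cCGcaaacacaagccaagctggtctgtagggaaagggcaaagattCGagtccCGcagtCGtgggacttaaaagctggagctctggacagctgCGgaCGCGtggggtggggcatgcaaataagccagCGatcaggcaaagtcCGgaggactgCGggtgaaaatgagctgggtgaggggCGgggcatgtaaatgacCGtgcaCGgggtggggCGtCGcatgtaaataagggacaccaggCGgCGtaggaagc
A single CpG stands in the Il7r stretch of 185 bases, 3 in the Il2ra stretch of 250 bases and 17 in the Il4ra stretch of 250 bases.

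Among the ligands of these receptors, 9 genes were examined, and 3 held an island in the gene with 2 kb on each side, while 6 held none, where 79.9% of all protein-coding genes held none. With so few genes this is near the background. Il2 held one in WT alone, Il7 in KO alone and Il15 in both. The WT island at Il2, the growth factor of activated T cells, was chr3:37106001-37122500, 16.5 kb long with 39.3 reads per kb, and covered 34.1% of the gene at its lower-coordinate end. The nearest KO island was 114 kb from it. At Il7, the survival factor made largely by stromal cells, 2 KO islands lay inside the gene, chr3:7582501-7591500 with 41.1 reads per kb and chr3:7595501-7602000 with 42.2, 15.5 kb in all. The nearest WT island was 127 kb from Il7. Ligand and receptor of the interleukin-7 pair were thus covered in different libraries, Il7r in WT and Il7 in KO. Other pairs differed from this. Il2 and Il2rb were both covered in WT alone, and Il15 was covered in both libraries while Il15ra was covered in neither. These pairs depend on the chain chosen, since Il2ra was covered in neither library and Il2rb also belongs to the interleukin-15 receptor. No pairing of ligand and receptor was tested.

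At Il15 both libraries had an island at nearly the same place inside the gene, chr8:82362001-82370000 in WT and chr8:82362501-82370000 in KO. The WT island held 409 reads, or 51.1 per kb, and the KO island 312, or 41.6 per kb, both unscaled, and all of the KO island lay within the WT one. Il4, Il6, Il9, Il13, Il21 and Tslp held none, though a WT island lay 4.86 kb and a KO island 3.36 kb from Il21, and a WT island 3.7 kb from Tslp.

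Of the signalling genes, 1 held an island, where 14.0% of all protein-coding genes held one in WT and 13.7% in KO. Of 6 shared and partner chains, which include Il2rg, Il6st (gp130), Il9r and Crlf2, 0 held one in either library. Il2rg, Il13ra1 and Il13ra2 are on chromosome X, where the WT list had 2 islands and the KO list 9, so their lack of an island says little. Of the 10 Janus kinase and STAT genes, 0 held one. The nearest to one were Stat6, with a WT island at 6.45 kb, and Jak2, with a KO island at 13.4 kb. Of 17 feedback and target genes, such as Socs1, Cish, Bcl2 and Myc, 1 held an island. It was Socs6, a suppressor of cytokine signalling, with 5.83 kb in WT alone.

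Among other cytokine receptor genes, islands in 1 library alone fell on both sides. Of 32 genes, 3 held an island in WT alone, 2 in KO alone, 3 in both and 24 in neither, or 6 in WT and 5 in KO. These counts are near the background shares of 6.39%, 6.16%, 7.58% and 79.9%. The growth hormone receptor gene Ghr, on chromosome 15, held 19 kb in WT and 46 kb in KO without any shared sequence. Prlr, the prolactin receptor gene, also on chromosome 15, held 21 kb in WT alone, with the nearest KO island 133 kb away. Lepr, the leptin receptor gene, held 15.9 kb in KO alone. Il3ra held 9.99 kb in WT and 5.99 kb in KO, all of the KO cover lying within the WT cover. Il23r held 8 and 7 kb with 6 kb shared. Ifnlr1, the interferon lambda receptor gene, held 6.5 kb in WT alone, and its nearest KO island, like that of Il2rb, was more than 1 Mb away, at 1738 kb.

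Genes whose island pattern was most like that of Il7r or Il2rb were sought among protein-coding genes of similar length, by the distance over 4 values. These were the percent covered in WT and in KO of the gene with 2 kb and with 100 kb on each side. The 4 values come from 2 libraries only, and likeness in them is a description. For Il7r, with 64.2%, 0, 8.49% and 4.92%, the closest of 5221 genes was Slc35g2 on chromosome 9, with 65.5% and 0 over the gene, followed by Klk13 on chromosome 7 and Cdkn2a on chromosome 4. Their distances were 4.05, 5.62 and 8.65 percentage points. For Il2rb the closest of 4704 genes were Atp1a4, Cdkl2 and Rgma, at 0.429, 0.954 and 1.01 points. All 6 had an island over the gene in WT and none in KO, which follows from the way they were chosen.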

How the data were processed

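H3K9me3 ChIP-seq of 2 libraries, WT and KO, was analysed. Reads were aligned with Bowtie2 and islands called with SICER 1.1 on mm10, per the submitters' processing notes. Window and gap size, thresholds, duplicate handling and use of the input were not given in the sources used here. In the deposited lists, the authors give a whole-number count per island with no header. It was read as ChIP reads and used unscaled. Starts and ends were converted to positions counted from 1. Reads per kb are count over length, and Poisson intervals (95%) cover counting error only.

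Genes came from RefSeq GRCm38.p6, the assembly mm10 names. Left out were 365 genes taken to lie on scaffolds, from an unknown chromosome or a place out of order in the annotation. Overlap needed at least 1 bp. Python 3.11.15, pandas 2.3.3, NumPy 2.4.6 and SciPy 1.17.1 were used, and interval functions were tested on simulated data. With 1 library per genotype no test was made. The members and gene lists were chosen with earlier results of these data known. All members, every island within 100 kb, pathway genes holding an island, up to 6 other receptor genes (longest cover, an order set after the values were seen) and the 3 genes most like a covered member (region length within 1.5 times) are named. Gene density, wider neighbourhoods, same-length percentiles and promoter CpGs were added after the data were seen, as were the other names, such as those of flanking genes.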

Additional observations from a re-analysis of the deposited data

How the results depend on the processing

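No paired analysis was possible because WT and KO have a single library each. As deposited, 4 WT and 3 KO islands lay within 100 kb, covering 40.5 and 14 kb. With 50 kb on each side there were 2 WT and 1 KO islands, 26 and 4 kb, and 0 overlapped in either list. With 200 kb there were 13 and 8 islands, 110 and 46.8 kb, and 3 overlapped in each list. KO islands reduced to the WT number, those with 351 reads or more, left 0 KO islands, 0 kb and 0 overlapped, since all 3 KO islands hold fewer, as do 2 of the 4 WT islands, to which no limit was applied. When only islands denser than the median of their list were kept, the WT-alone count over genes fell from 2 to 1, because the Il7r island lies below that median, and cover was 21.5 kb in WT and 7 kb in KO. Of 42 alternative values for these 8 results, 23 stayed within 1.5 times. They include all with islands of at least 2 kb, with at least 50% of an island covered, and with 0 or 10 kb of flank for gene counts. Many of the 23 could not move. The shortest island within 100 kb was 3 kb long, so the 2 kb limit removed none. The reduced KO list left the WT list as it was. A limit that only removes islands could not raise the KO-alone count over genes from 0. The 23 are thus no measure of how stable the results are. Cover summed over the genes was higher in WT in each setting, but for Il7r alone it reversed among the denser islands (WT 0, KO 4 kb). That limit favours short islands, and the KO island left near Il7r was at percentile 8.08 in reads per kb for its length. Library depth is unknown, so how close uncalled sequence came to the calling threshold was not tested.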
